A study of Mus musculus with 6 samples.

Results

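Autophagy is the route by which a cell encloses its own proteins and organelles in a double membrane, the autophagosome, and delivers them to the lysosome. The ULK1 kinase complex starts the process, a class III PI3-kinase marks the membrane, ATG2, ATG9 and WIPI proteins supply lipid, and 2 conjugation systems attach LC3 and GABARAP proteins to the growing membrane, where cargo receptors bind them. TFEB, TFE3 and MITF are related transcription factors that mTORC1 holds in the cytoplasm and that drive lysosomal and autophagy genes when they enter the nucleus. Growth factor receptors such as FLT3 signal to mTORC1 and to FOXO factors through PI3-kinase, and autophagy is known to matter for blood stem cells and for leukaemic cells under stress. The genes described here are 38 mouse genes of this machinery, of 53733 named rows in the count table. They were chosen by symbol, with earlier results of these data known. Every one of them had a single row that passed the filter on low counts.

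The cells were 1 acute myeloid leukaemia line made from mouse foetal liver cells with 2 retroviral vectors. An MSCV vector expressed Luc2 luciferase and the fusion oncogene MLL-AF9 constantly, and a TRE-tight vector expressed DsRED and FLT3-ITD, a mutant of the growth factor receptor FLT3 that signals without ligand, only in the presence of doxycycline. NSG mice, an immunodeficient strain that lacks B, T and NK cells but keeps its own myeloid and erythroid cells, received the cells by tail vein and doxycycline for 96 h. In the OFF group 3 mice then went to ordinary food and water for 48 h, in the ON group 3 mice stayed on doxycycline, and all were culled together for sorting of viable leukaemic cells from bone marrow and 3' mRNA sequencing (QuantSeq). Both groups carried both vectors, so loss of FLT3-ITD and loss of doxycycline itself cannot be told apart. The sources used here do not say whether the line was 1 clone, how old the mice were or which markers were sorted on.

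The 6 libraries, 1 per mouse, ranged from 8347588 to 9329917 counts. Levels are given as CPM, counts scaled to a common library size, on which 1 count equals 0.11 to 0.124 CPM. OFF replicate 3 stood apart from OFF replicates 1 and 2 on the second principal component of all genes (-29.3 against 23.9 and 14.4), which held 13.6% of the variance. Markers of myeloid and MLL-AF9 leukaemia cells were Ptprc, Kit, Mpo, Elane, Hoxa9, Meis1, Cd33, Csf1r and Itgam. Of these 9, Kit was near 0 (0.269 CPM in ON and 0.295 CPM in OFF) and the other 8 were present in all libraries. These markers moved with the groups: 7 of 8 tested rose, and the 9 summed to between 1780 and 2020 CPM in ON and between 3320 and 3530 CPM in OFF. The granule genes Mpo and Elane went from 301 to 803 CPM and from 840 to 1626 CPM on average, while Hoxa9 did not pass (331 and 350.1 CPM). Itgam and Csf1r, which are not particular to progenitors, rose from 60.9 to 136.8 CPM and from 17.3 to 31.9 CPM. Markers of other cells moved too: 6 erythroid genes summed to between 150 and 211 CPM in ON and between 577 and 932 CPM in OFF, with 5 of 5 tested members higher. Mature neutrophil genes summed to between 1670 and 1780 CPM in ON and between 2620 and 6780 CPM in OFF, with 5 of 6 higher. Camp made up most of that sum, at between 1560 and 1659 CPM in ON against 2460, 4068 and 6515 CPM in OFF replicates 1 to 3. The other 5 neutrophil genes together gave 106.5 to 117.9 CPM in ON and 159.3 to 260.4 CPM in OFF. Of 7 macrophage markers 3 were tested, 2 higher and 1 lower. From ON to OFF, Adgre1 rose from 4.06 to 16.2 CPM and Mrc1 from 0.501 to 1.48 CPM on average. Vcam1 fell from 39.8 to 19.9 CPM. The 7 summed to between 42.7 and 48.2 CPM in ON and between 35.5 and 40.8 CPM in OFF. The complement genes C1qa, C1qb and C1qc had at most 3 counts in any library. Lymphoid genes summed to at most 2.09 CPM, megakaryocyte genes to at most 2.64 CPM and stromal genes to at most 11 CPM. The part of these marker shifts in the results below was not tested, and in sorted bulk samples a change in cell make-up and a change in RNA per cell cannot be told apart.

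After doxycycline withdrawal, which turns FLT3-ITD off, more of these genes rose than fell, and 18 of the 38 did not pass the test. By edgeR's quasi-likelihood test with Benjamini-Hochberg adjustment over all tested rows, 18 of the 38 rose and 2 fell, or 47.4% and 5.26%, against 17.3% of all 13652 rows higher and 17.5% lower. In either direction 20 members (52.6%) passed, against 34.8% of rows. Their median log2 fold change, OFF minus ON, was 0.46, against 0.00432 for all rows. The members that rose did so moderately, by between 1.36-fold and 2.44-fold, and 1 of them passed at 2-fold or more, a size reached by 10.7% of all rows. In 23 members (60.5%) the mice of the 2 groups were fully separated, 21 of them with OFF above ON. Of all 13652 rows 48.3% were separated in either direction, 3246 rows with OFF above ON and 3346 with OFF below. Without ON replicate 3 the count of members that passed was 13, 12 higher and 1 lower.

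**Figure D1:**
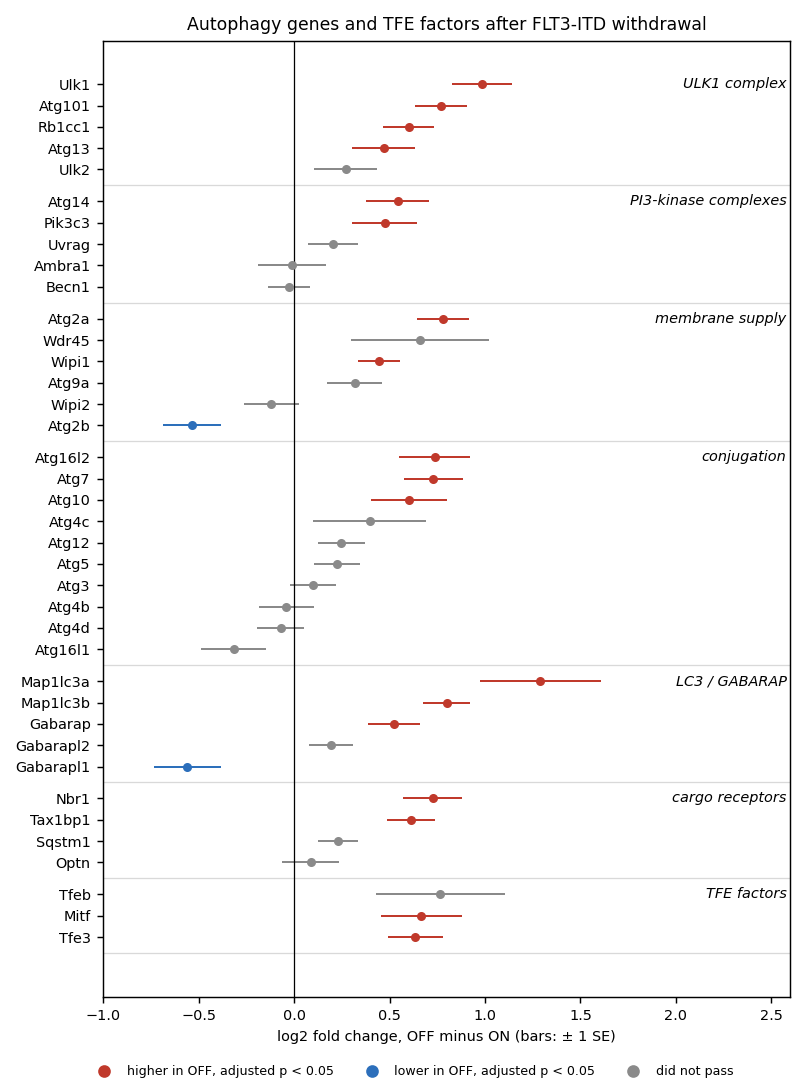
Log2 fold change of the 38 genes, OFF minus ON, with bars of ± 1 SE, grouped by role; red and blue mark genes that passed an adjusted p of 0.05. Points lie to the right of 0 for 30 genes, and the blue points are Atg2b and Gabarapl1.

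The promoters of these genes were searched for the sites through which TFE and FOXO factors are known to bind, because the TFE genes and their textbook targets are both among the genes measured. RefSeq windows from 250 bases before to 50 bases after a gene start (GRCm38.p6) were at hand for 32 of the 38 genes, in 40 windows. The E-box CACGTG, which reads the same on both strands, was in 4 of those 40 windows (Atg3, Atg5, Atg7 and Atg14) and in 7.15% of all 32851 windows. Its longer form TCACGTGA, which contains the E-box, was in the Atg3 window and in 0.974% of all windows. The full CLEAR element, the lysosomal gene site of TFEB, was in none of the 40 and in 0.326% of all windows. The forkhead letters TGTTTAC, searched on both strands (GTAAACA on the other), were likewise in none and in 3.65% of all windows. Among genes that passed the test, the E-box was in 2 of 17 with a window, Atg7 and Atg14. Both are shown with the Atg3 window, whose gene did not pass and was added after its values were seen. Each is 300 bases, printed 5' to 3' on the gene's strand, with CACGTG in capitals.
Atg7, chr6:114670846-114671145, plus strand: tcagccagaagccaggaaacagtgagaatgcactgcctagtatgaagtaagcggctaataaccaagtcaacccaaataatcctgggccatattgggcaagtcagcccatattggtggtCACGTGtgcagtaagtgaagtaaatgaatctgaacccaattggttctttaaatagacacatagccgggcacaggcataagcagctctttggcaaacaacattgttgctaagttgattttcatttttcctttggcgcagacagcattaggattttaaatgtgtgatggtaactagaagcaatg
Atg14, chr14:47568385-47568684, minus strand: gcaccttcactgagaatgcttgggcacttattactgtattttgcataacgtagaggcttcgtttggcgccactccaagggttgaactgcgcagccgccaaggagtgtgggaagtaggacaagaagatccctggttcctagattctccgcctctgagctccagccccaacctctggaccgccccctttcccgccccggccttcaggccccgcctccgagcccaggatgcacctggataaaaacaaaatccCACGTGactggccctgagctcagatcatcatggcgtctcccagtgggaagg
Atg3, chr16:45158579-45158878, plus strand: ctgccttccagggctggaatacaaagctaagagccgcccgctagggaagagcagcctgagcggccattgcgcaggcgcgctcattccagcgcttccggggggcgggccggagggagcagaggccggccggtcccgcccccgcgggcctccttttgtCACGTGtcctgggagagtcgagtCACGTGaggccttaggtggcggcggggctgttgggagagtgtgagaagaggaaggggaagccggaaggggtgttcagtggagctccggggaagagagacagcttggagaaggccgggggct
The E-box began 132 bases before the RefSeq start of Atg7, 1 base before that of Atg14, and 94 and 71 bases before that of Atg3, where the second copy is the one inside TCACGTGA. The Atg7 start used by RefSeq here lies 27999 bases inside the gene as GENCODE M21 annotates it, and the Atg14 start 2215 bases inside. A match is a string of letters and not a measured binding site.

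The ULK1 complex, which starts autophagosome formation and is held in check by mTORC1, rose in 4 of 5 members and fell in none. The share higher was 80%, against 17.3% of all rows. In either direction it was 80% against 34.8%. Ulk1, its kinase (chr5:110784488-110810097, minus strand), measured 9.02, 8.09 and 8.81 CPM in the 3 ON mice against 15.5, 16.04 and 19.7 CPM in the 3 OFF mice. Every OFF mouse was above every ON mouse, and OFF replicate 3 was the highest (log2 fold change 0.98, SE 0.16, adjusted p = 2.45e-04). Atg101, a small subunit that stabilises ATG13 (chr15:101284272-101290945, plus strand), went from 24.9, 21.1 and 20.5 CPM to 32.0, 39.1 and 42.4 CPM, again without overlap (log2 fold change 0.77, SE 0.14, adjusted p = 5.59e-04). Rb1cc1, which encodes the scaffold FIP200 (chr1:6206197-6276648, plus strand), was tight in ON at 49.4, 49.7 and 50.5 CPM and spread in OFF at 79.7, 87.5 and 59.5 CPM. Here OFF replicate 3 was the lowest of the 3 and still above ON (log2 fold change 0.60, SE 0.13, adjusted p = 0.0029). Atg13, the regulatory subunit (chr2:91674618-91710576, minus strand), gave 8.34, 8.998 and 8.43 CPM in ON and 10.2, 12.03 and 13.4 CPM in OFF. It passed only narrowly (log2 fold change 0.47, SE 0.17, adjusted p = 0.039). Its call was lost without any one of ON replicates 1 to 3 or OFF replicates 2 and 3 (adjusted p between 0.0874 and 0.122). It was also lost with DESeq2 (0.0995), a replicate block (0.0584), library totals alone (0.0531) and no low-count filter (0.0784). Atg13 passed in 4 of the 13 alternatives that tested it. Ulk2, the second kinase of the family, did not pass (8.73 ± 0.60 against 10.5 ± 1.06 CPM, SD, n = 3 mice, adjusted p = 0.221), although its groups did not overlap.

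In the class III PI3-kinase group, which makes the phosphatidylinositol 3-phosphate that marks the forming membrane, 2 of 5 members rose. The share higher was 40%, against 17.3% of all rows. In either direction it was 40% against 34.8%. The mice of the 2 groups were fully separated in 20% of these members, against 48.3% of all rows. The 3 members that did not pass had log2 fold changes between -0.03 and 0.20. Atg14, the subunit that directs the kinase to autophagosomes (chr14:47540893-47570649, minus strand), stood at 10.3, 9.11 and 10.4 CPM in ON against 15.5, 11.7 and 16.2 CPM in OFF. The groups did not overlap, with OFF replicate 2 closest to ON (log2 fold change 0.54, SE 0.17, adjusted p = 0.0192). Leaving out ON replicate 1, 2 or 3 ended its call (adjusted p = 0.0554, 0.0931 and 0.0524). Pik3c3, the catalytic subunit VPS34 (chr18:30272747-30348126, plus strand), gave 14.7, 9.91 and 11.7 CPM in ON and 17.1, 18.7 and 14.6 CPM in OFF. It was the one gene that rose with overlapping groups, since ON replicate 1 lay just above OFF replicate 3 (log2 fold change 0.47, SE 0.17, adjusted p = 0.0396). The call ended without ON 2, ON 3 or OFF 2 (adjusted p = 0.194, 0.129 and 0.158) and with DESeq2 (0.0739). Becn1, the Beclin 1 subunit shared by these complexes, was at 60.1, 58.7 and 61.2 CPM in ON and 55.4, 56.2 and 64.8 CPM in OFF (log2 fold change -0.03, SE 0.11, adjusted p = 0.872). It shares 3104 exonic bases, beginning 103 bases from its 3' end, with Cntd1 on the opposite strand, whose row held 47.3 and 48.1 CPM. Because the strand setting of the counting is not given, reads of these 2 genes cannot be told apart. Uvrag, the subunit of the endosomal form of the complex, gave 18.9 ± 0.591 CPM in ON and 21.8 ± 2.46 CPM in OFF, and the regulator Ambra1 gave 8.17 ± 1.17 and 8.13 ± 0.179 CPM (SD, n = 3 mice each). Neither passed (adjusted p = 0.254 and 0.973).

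BCL2 proteins bind Beclin 1 and hold it inactive, so 3 of them, which are not among the 38 genes, were read beside Becn1. Bcl2 fell from 6.59 ± 1.01 to 2.22 ± 0.342 CPM (SD, n = 3 mice each, log2 fold change -1.57, adjusted p = 2.62e-04). Mcl1 fell by 0.41 on the log2 scale (adjusted p = 0.00621, or 0.0509 without ON replicate 2), and Bcl2l1 did not pass (log2 fold change -0.08, adjusted p = 0.725); without ON replicate 3 its log2 fold change was 0.06.

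Genes of membrane supply moved in both directions. The 2 lipid transfer proteins of the ATG2 pair, which bridge the endoplasmic reticulum and the growing membrane and can replace each other, were changed in opposite senses. Atg2a (chr19:6241668-6262335, plus strand) rose from 13.0, 12.1 and 11.5 CPM to 19.9, 21.6 and 21.5 CPM (log2 fold change 0.78, SE 0.13, adjusted p = 4.64e-04). Atg2b (chr12:105616136-105685211, minus strand) fell from 12.8, 14.7 and 14.6 CPM to 8.77, 9.91 and 10.3 CPM (log2 fold change -0.54, SE 0.15, adjusted p = 0.0135). Neither gene had overlapping groups. Leaving out ON replicate 2 or 3 ended the call of Atg2b (adjusted p = 0.065 and 0.0579). It shares 383 exonic bases with Gskip on the opposite strand, 68693 bases from its 3' end, and Gskip went the other way (log2 fold change 0.56). Wipi1, a reader of phosphatidylinositol 3-phosphate (chr11:109573331-109611967, minus strand), rose from 36.4, 38.6 and 37.96 CPM to 47.2, 53.5 and 53.0 CPM (log2 fold change 0.44, SE 0.11, adjusted p = 0.00587). Wipi2, a relative, which recruits ATG16L1, did not pass (14.9 ± 0.505 against 13.7 ± 1.604 CPM, SD, n = 3 mice each, adjusted p = 0.559), nor did the WIPI family member Wdr45, which was low and scattered at between 2.28 and 7.26 CPM. Atg9a, the membrane scramblase, was higher in each OFF mouse than in any ON mouse by a small margin (13.8 ± 1.09 against 17.2 ± 2.1 CPM) and did not pass (adjusted p = 0.108, or 0.0474 without OFF replicate 1). All of its 3' end is shared with Gm29253 on the same strand, which had 13.7 and 16.6 CPM, so these rows may hold the same reads.

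In the conjugation systems 3 of 10 members rose and none fell, and the median log2 fold change was 0.24. The share higher was 30%, against 17.3% of all rows. In either direction it was 30% against 34.8%. Atg7, the E1-like enzyme that both systems need (chr6:114643097-114860614, plus strand), stood at 19.99, 16.3 and 19.0 CPM in ON against 26.8, 27.0 and 37.8 CPM in OFF. OFF replicate 3 was the highest, and the groups did not overlap (log2 fold change 0.73, SE 0.15, adjusted p = 0.00209). Atg10, the E2-like enzyme for ATG12 (chr13:90935356-91223968, minus strand), rose from 6.40, 5.92 and 5.83 CPM to 7.55, 11.4 and 8.69 CPM (log2 fold change 0.60, SE 0.20, adjusted p = 0.0285). That call rested on low counts and did not survive the loss of ON 1, ON 2, ON 3 or OFF 2 (adjusted p = 0.0677, 0.0954, 0.0961 and 0.152) or the use of DESeq2 (0.0622). Atg16l2 (chr7:101263034-101302251, minus strand) rose while Atg16l1, the form that places LC3 lipidation on the membrane, did not. Atg16l2 went from 12.2, 13.2 and 13.3 CPM to 14.9, 23.6 and 26.0 CPM, with OFF replicate 1 close to the ON range (log2 fold change 0.74, SE 0.18, adjusted p = 0.00649). Atg16l1 gave 14.0, 17.8 and 18.4 CPM in ON and 10.7, 13.8 and 15.7 CPM in OFF, with overlap (log2 fold change -0.32, SE 0.17, adjusted p = 0.161, or 0.0385 without OFF replicate 3). The ubiquitin-like protein Atg12 and its partner Atg5 gave log2 fold changes of 0.25 and 0.23 without passing (adjusted p = 0.139 and 0.165), and Atg12 passed without OFF replicate 3 (0.00827). Atg3, the E2-like enzyme for LC3, gave 0.10, and the LC3-processing proteases Atg4b, Atg4c and Atg4d gave -0.04, 0.40 and -0.07 (adjusted p between 0.321 and 0.855 for these 4 genes).

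LC3 and GABARAP proteins, the ubiquitin-like tags that coat the autophagosome, rose in 3 of 5 genes and fell in 1. These shares were 60% and 20%, against 17.3% and 17.5% of all rows, and 80% against 34.8% in either direction. Map1lc3b, the LC3 gene most used as a marker of autophagosomes (chr8:121590361-121598760, plus strand), stood at 40.3, 44.5 and 41.6 CPM in ON against 65.7, 69.2 and 85.0 CPM in OFF. All OFF mice were well above the ON mice (log2 fold change 0.80, SE 0.12, adjusted p = 1.68e-04). Map1lc3a (chr2:155276297-155278073, plus strand) had the largest fold change of the 38 genes but few reads, with 1.94, 1.25 and 1.12 CPM in ON and 3.67, 3.90 and 3.08 CPM in OFF (log2 fold change 1.29, SE 0.32, adjusted p = 0.00554). Gabarap (chr11:69991143-69994951, plus strand) rose from 43.9, 40.7 and 34.9 CPM to 58.2, 65.8 and 47.6 CPM (log2 fold change 0.52, SE 0.13, adjusted p = 0.00748). The lowest OFF value, in OFF replicate 3, was only slightly above the highest ON value, and leaving out ON 3 or OFF 2 ended the call (adjusted p = 0.0621 and 0.0562). Gabarapl1 (chr6:129533160-129542346, plus strand) fell from 11.8, 11.05 and 10.2 CPM to 8.66, 7.35 and 6.38 CPM, without overlap (log2 fold change -0.56, SE 0.18, adjusted p = 0.0221). That call was lost without ON 1, ON 2 or OFF 2 (adjusted p = 0.0928, 0.072 and 0.0677) and with DESeq2 (0.0535). Gabarapl2 was at 43.8 ± 2.41 and 50.1 ± 5.35 CPM (SD, n = 3 mice each) and did not pass (log2 fold change 0.19, adjusted p = 0.215). The last 58 exonic bases of Map1lc3b overlap Zcchc14 on the opposite strand, which was not among the tested rows.

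**Figure D2:**
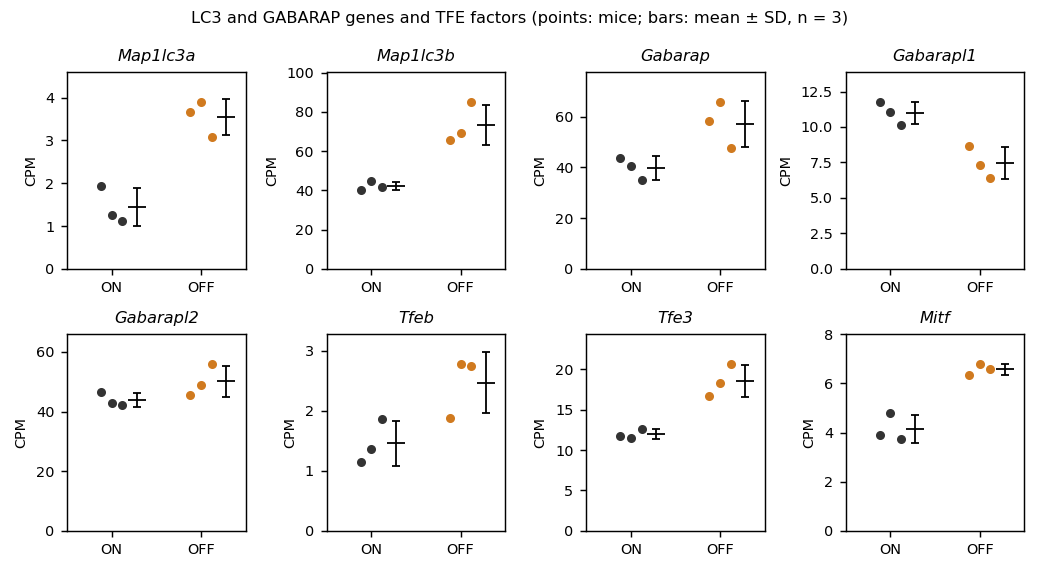
CPM of the 5 LC3 and GABARAP genes and the 3 TFE genes in each mouse (points), with mean ± SD beside them (n = 3 per group) and each axis starting at 0. OFF points lie above ON points for Map1lc3a, Map1lc3b, Gabarap, Tfeb, Tfe3 and Mitf, below them for Gabarapl1, and overlap for Gabarapl2.

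Cargo receptors, which tie ubiquitinated cargo to LC3, rose in 2 of 4 genes. The share higher was 50%, against 17.3% of all rows. In either direction it was 50% against 34.8%. Tax1bp1 (chr6:52713729-52766780, plus strand) was at 271, 232 and 244 CPM in ON against 418, 419 and 306 CPM in OFF. OFF replicate 3 lay between the other OFF mice and the ON mice (log2 fold change 0.61, SE 0.13, adjusted p = 0.00171), and without it the log2 fold change was 0.75. Nbr1 (chr11:101552149-101581951, plus strand) rose from 14.5, 10.3 and 12.5 CPM to 18.5, 22.4 and 20.8 CPM, without overlap (log2 fold change 0.73, SE 0.15, adjusted p = 0.00215). Sqstm1, which encodes p62, the receptor that is itself degraded by autophagy, gave 53.4, 55.5 and 53.8 CPM in ON and 64.7, 59.6 and 66.8 CPM in OFF. These groups did not overlap either, but the gene did not pass (log2 fold change 0.23, SE 0.11, adjusted p = 0.103, and between 0.0531 and 0.284 in the other settings tried). Its exons share 580 bases with Mrnip on the opposite strand near the 3' end, and Mrnip rose (2.66 to 5.03 CPM). Optn, the mitophagy receptor optineurin, had overlapping groups at 17.4 ± 1.48 and 18.5 ± 3 CPM (SD, n = 3 mice each, adjusted p = 0.691).

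Of the TFE transcription factors, Tfe3 and Mitf rose. Tfe3 (chrX:7762560-7775202, plus strand) stood at 11.8, 11.5 and 12.7 CPM in ON against 16.7, 18.4 and 20.7 CPM in OFF (log2 fold change 0.63, SE 0.14, adjusted p = 0.00327). Mitf (chr6:97807052-98021349, plus strand) rose from 3.88, 4.78 and 3.72 CPM to 6.33, 6.79 and 6.60 CPM (log2 fold change 0.67, SE 0.21, adjusted p = 0.0239). Neither had overlapping groups, and the call of Mitf was lost without ON 1, ON 3 or OFF 2 (adjusted p = 0.0881, 0.096 and 0.0712) and with DESeq2 (0.0643). Tfeb was near the lower end of what these libraries can measure, at 1.142, 1.37 and 1.86 CPM in ON and 1.89, 2.78 and 2.75 CPM in OFF. Its fold change was as large as those of its relatives but its error was wider, and it did not pass (log2 fold change 0.77, SE 0.34, adjusted p = 0.094). These are transcript levels. The activity of TFE proteins depends on their place in the cell, which was not measured.

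The 3 OFF mice did not show the same profile over the 18 genes that rose. OFF replicate 3 was the highest OFF library for 8 of them (Ulk1, Atg13, Atg101, Atg14, Atg7, Atg16l2, Map1lc3b and Tfe3) and the lowest for 5 (Rb1cc1, Pik3c3, Map1lc3a, Gabarap and Tax1bp1). OFF replicate 2 was the highest for the other 10, and OFF replicate 1 was the lowest for 12 and the highest for none. Each OFF mouse nevertheless had most of the 38 genes above the ON mean, 30, 31 and 31 in OFF replicates 1 to 3. The median difference from ON over the 38 genes, on the log2(CPM + 0.5) scale, was 0.31, 0.41 and 0.30, against 0.0105, 0.0081 and 0.0023 over all tested rows.

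**Figure D3:**
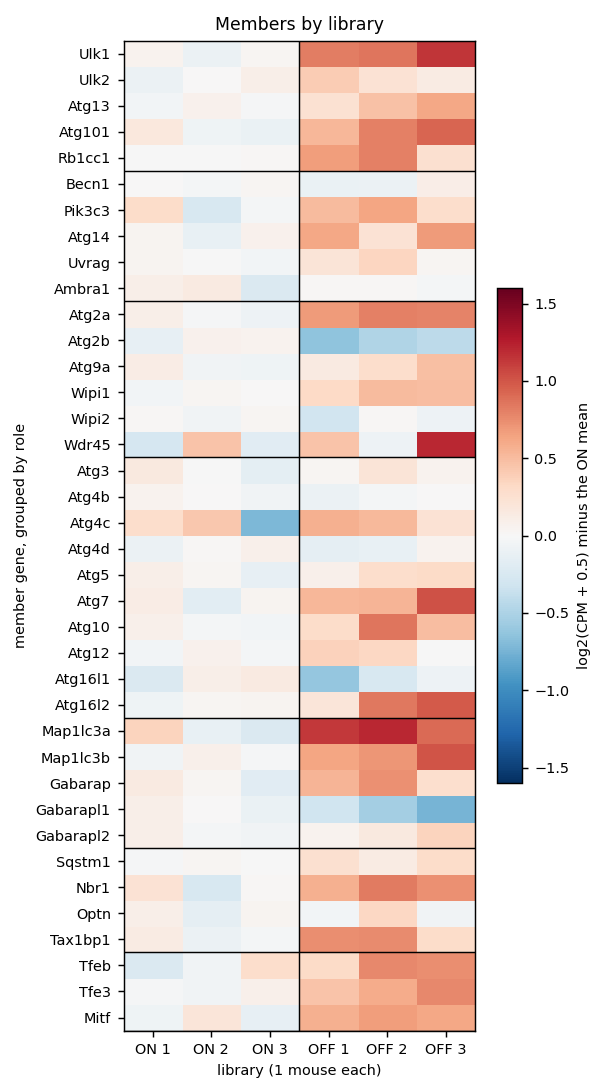
Each of the 38 genes (rows, grouped by role) in each library (columns) as log2(CPM + 0.5) minus the mean of the 3 ON libraries; red is higher and blue is lower. The OFF columns are mostly red, with Atg2b, Gabarapl1 and Atg16l1 blue in all 3. Atg16l1, which did not pass, was close to the ON mean in OFF replicate 3.

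Autophagy genes outside the 38, from a list of relatives, fusion factors and receptors for mitochondria and endoplasmic reticulum, were read beside them. Of 39 tested, 8 rose and 3 fell (20.5% and 7.69%, against 17.3% and 17.5% of all rows), with a median log2 fold change of 0.19. In either direction 28.2% passed, against 34.8% of all rows. The 4 largest rises were in Pink1, the kinase that marks damaged mitochondria (4.16 ± 0.708 to 9.71 ± 1.78 CPM, log2 fold change 1.22), the receptor Calcoco1 (2.98 to 6.79 CPM, 1.19), Wdr81 (6.19 to 12.7 CPM, 1.04) and the endoplasmic reticulum receptor Fam134b (10.5 ± 0.804 to 19.6 ± 0.361 CPM, 0.90). Each had non-overlapping groups and adjusted p between 1.95e-04 and 0.00264. The 3 that fell were Atg9b (3.90 to 0.888 CPM, log2 fold change -2.12, adjusted p = 3.65e-04), the mTORC1 inhibitor Sesn2 (8.47 to 4.36 CPM, -0.96, adjusted p = 0.0019) and the PI3-kinase subunit Nrbf2 (-0.37, adjusted p = 0.0433). The 3' end of Atg9b overlaps Nos3 on the opposite strand by 294 exonic bases, and Nos3 fell too (log2 fold change -2.39), so the reads of these 2 rows cannot be told apart. The call of Nrbf2 was lost without any one of ON replicates 1 to 3 or OFF replicates 1 and 2 (adjusted p between 0.0556 and 0.185) and in 5 other settings.

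Regulators that hold TFE factors at the lysosome or release them gave 5 higher and 1 lower of 20 tested, with a median log2 fold change of 0.11. These shares were 25% and 5%, against 17.3% and 17.5% of all rows, and 30% against 34.8% in either direction. Fnip1, the folliculin partner, averaged 39.5 ± 4.87 CPM in ON and rose to 70.6 ± 7.34 CPM (SD, n = 3 mice each; log2 fold change 0.84, adjusted p = 1.42e-04), and Ppp3ca, a calcineurin catalytic subunit, by 0.51 (adjusted p = 0.00444). The Ragulator subunits Lamtor2 and Lamtor1 gave 0.43 and 0.42 (adjusted p = 0.0228 and 0.0178). The former was lost without ON 1, ON 2 or OFF 2 (0.0584, 0.135 and 0.0565) and the latter without ON replicate 1 or 3 (0.0621 and 0.118). Ppp3cb, the other calcineurin catalytic subunit measured, fell (-0.31, adjusted p = 0.032). That call was lost without any one of ON replicates 1 to 3 or OFF replicate 2 (0.0822 to 0.114) and with a replicate block (0.067). DESeq2 (0.0529), no low-count filter (0.0528) and limma on the deposited log2 table (0.0594) also ended it. This list gave 3 called genes in all without ON replicate 1, 2 or 3 or OFF replicate 2. In those settings 3500, 3293, 3358 and 3504 rows were called in the whole table, against 4746 with all libraries.

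Lysosomal genes known as TFEB targets rose in 20 of 35 tested members and fell in 1 (57.1% and 2.86%, against 17.3% and 17.5% of all rows), with a median log2 fold change of 0.42. This list too was chosen with earlier results of these data known. Leading them were the mannosidase Man2b1 (85.0 ± 4.16 to 196 ± 27 CPM, log2 fold change 1.204, adjusted p = 4.91e-06), progranulin Grn (155 ± 3.73 to 318 ± 43.5 CPM, 1.04, adjusted p = 1.13e-05), the sulfamidase Sgsh (0.85, adjusted p = 0.00524) and prosaposin Psap (0.80, adjusted p = 3.27e-04), each n = 3 mice per group. The exons of Sgsh and Grn overlap Card14 and Fam171a2 on the opposite strand, neither of which was among the tested rows. Tmem55b, which positions lysosomes in the cell, was the 1 that fell (51.6 ± 1.96 to 38.1 ± 4.32 CPM, log2 fold change -0.44, adjusted p = 0.00912). Many of these lysosomal genes are also abundant in maturing myeloid cells. The leukaemia, neutrophil and erythroid marker sums given above were higher in the same OFF libraries. A link between those sums and the lysosomal genes, or the 38 genes, was not tested.

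**Figure D4:**
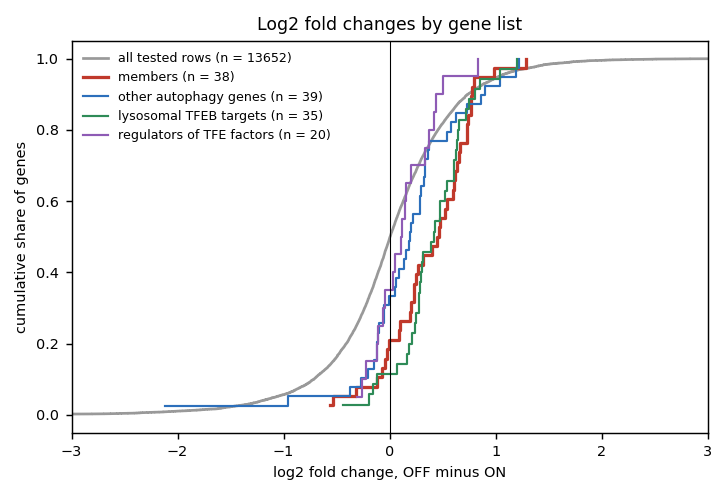
Cumulative share of genes (y axis) at or below each log2 fold change, OFF minus ON (x axis), for all 13652 tested rows, the 38 genes, 39 other autophagy genes, 35 lysosomal TFEB targets and 20 regulators of TFE factors; the extremes of all rows lie beyond the axis. The medians are 0.00432, 0.46, 0.19, 0.42 and 0.11 in that order.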

How the data were processed

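QuantSeq reads lie near the 3' ends of mRNAs, and the kit is named per the labels' protocols. Tools named per the submitters' processing notes are HISAT2 2.0.4, cutadapt 1.9.1, featureCounts from Subread 1.6.3 and limma 3.42.2, with build mm10. Not given in the sources used here are the annotation, the strand setting and what became of multiply mapped reads. The authors' deposited raw counts held 54838 rows, of which 1105 without a name (0.145% to 0.172% of counts) were left out. The authors' deposited log2 values for normalised expression were used as an alternative only.

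The count test was edgeR 4.0.16 under R 4.3.3: filterByExpr with defaults (minimum count 10, minimum total 15), TMM scaling, robust dispersions, and glmQLFit and glmQLFTest of OFF against ON with no covariate, adjusted by Benjamini-Hochberg over 13652 rows at 0.05. The SE was derived from the F statistic. CPM use TMM-scaled library sizes. Replicates are separate mice. Mice of 1 group were not copies of each other (chi-square per degree of freedom 2.98 to 39.5). The code was tested on simulated data. With 3 mice a group the smallest exact permutation p is 0.1, so the model's adjusted p is used. Positions and exon overlaps come from GENCODE M21 (GRCm38). No transcript of a gene elsewhere in the genome matched the last 300 bases of any of the 38 genes at 95% identity over 75 bases.

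All 38 genes are accounted for: those that passed are given with all 6 values, and of other lists up to 4 called genes each way, by size of change. The members and lists were chosen with earlier results of these data known. The library-size share of ribosomal RNA locus rows lay between 10.1% and 17.9% without separating the groups. Alternatives were DESeq2 1.42.0, RLE scaling, library totals, no low-count filter, 10 CPM in 3 libraries, ribosomal rows left out, a replicate block, limma 3.58.1 on the deposited log2 table, and each library left out in turn.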

Additional observations from a re-analysis of the deposited data

How the results depend on the processing

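Of the 20 genes that passed, 12 did so in each of the 14 alternatives that tested them (Ulk1, Atg101, Rb1cc1, Atg2a, Wipi1, Atg7, Atg16l2, Map1lc3a, Map1lc3b, Nbr1, Tax1bp1 and Tfe3; Map1lc3a was not tested at 10 CPM in 3 libraries), and none of the 20 changed sign. The cause of the differences below was not tested. The median over those of the 38 genes that were tested stayed between 0.40 and 0.47. At 10 CPM in 3 libraries it was 0.41, over 28 genes. Leaving out each library in turn gave 13 to 21 genes called, 12 to 19 higher and 0 to 3 lower, while 3293 to 5444 rows were called in all. DESeq2 gave 14 higher and 1 lower (4012 rows called), and 10 CPM in 3 libraries gave 14 higher and 1 lower of 28 tested. With 10 CPM in 3 libraries 1 other autophagy gene was lower. Among regulators of TFE factors, DESeq2, no low-count filter, the replicate block and limma on the deposited table each gave 0 lower, and leaving out each library gave 3 to 8 called, 3 to 6 higher and 0 to 2 lower. Genes near 0 that did not pass changed sign: Becn1 was 0.0190 with limma on the deposited table and -0.0981 to 0.0131 on leaving out each library, Ambra1 was 0.0082 with ribosomal rows left out, 0.00195 with limma and -0.127 to 0.0655 on leaving out each library, Optn was -0.0543 to 0.163 and Bcl2l1 was -0.194 to 0.0595 on leaving out each library. Mice of the same number did not deviate together (correlations 0.0348, -0.0759 and -0.0504), so no pairing by number was seen. With 3 mice a group these correlations cannot exclude that mice of the same number were handled together. The replicate block gave 19 of the 38 genes called and 4403 rows, and among the 38 it removed the call of Atg13 alone. At these depths genes of a few CPM, such as Tfeb and Wdr45, have wide errors.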
